A study of Mus musculus with 14 samples.

Results

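The genes described here, 4 glutathione peroxidases (*Gpx1*, *Gpx2*, *Gpx3* and *Gpx4*) and 6 antioxidant genes known as targets of the transcription factor NRF2 (*Nqo1*, *Hmox1*, *Gclc*, *Gclm*, *Txnrd1* and *Srxn1*), were followed in epidermal stem cells (EpdSCs) of mouse back skin during sustained SOX9 induction. The 10 genes were taken by symbol from 54332 gene entries. The set was selected on *Gpx2*, which had the largest rise in log2(TPM + 1) at week 2 (W2) over day 0 (D0), so that difference is given as a description with no test. For the same reason no member was tested at W2 against D0, and *Gpx2* was tested only in comparisons without D0 or W2 libraries.

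All libraries came from K14rtTA; TRE-myc-Sox9 mice of the CD1 strain, labelled male, in which rtTA expressed from the keratin 14 promoter turns on a MYC-tagged *Sox9* transgene when doxycycline (DOX) is given. DOX was started at P21, and EpdSCs were sorted at D0 (P21), W1 (P28), W2 (P35) and W6 (P63) as CD49f-high, Ly6A-high and CD34-negative cells that lacked CD31, CD45, CD117 and CD140a. W12 cells, sorted in the same way, came from newborn transgenic skin that had been grafted onto immunocompromised female *Nude* hosts, which keep their own blood vessels, blood and innate immune cells, before DOX was given. There were 2 libraries at each of the 5 timepoints. Age rose with time on DOX, and the 12 weeks and the graft cannot be told apart. DOX-treated mice with rtTA alone were not analysed here.

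Glutathione peroxidases use glutathione to reduce peroxides. GPX1 and GPX2 act mainly on hydrogen peroxide and small organic peroxides, GPX3 is secreted into plasma, and GPX4 reduces lipid peroxides in membranes. NRF2, encoded by *Nfe2l2*, is kept low by KEAP1, which marks it for degradation, and under oxidative or electrophilic stress it accumulates and binds antioxidant response elements with small MAF partners, while BACH1 competes for the same elements. *Gpx2* is best known from the lining of the gut and is itself a known NRF2 target.

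Values are TPM, transcript abundances scaled per transcript length and to the same fixed total in each library, so they are relative and hold no sequencing depth, and fewer cells of a type and less RNA per cell cannot be told apart. Differences are on the log2(TPM + 1) scale, which understates changes of low genes, and were tested with limma over the 13110 genes that averaged 1 TPM or more, with Benjamini-Hochberg adjusted *P* values called under 0.05. All members but *Gpx3* passed this filter (9 of 10). The MYC-SOX9 transcript measured 45.6 and 89.6 TPM at D0 against 606 to 3414 TPM in the 8 later libraries. Basal keratinocyte markers summed to 31948 to 48529 TPM with 7 of 7 detected in each library. *Cd34*, the surface marker the sort selected against, was at most 0.383 TPM up to W2, 2.66 and 5.04 TPM at W6, and 16.5 and 32.0 TPM at W12. D0 replicate 2 went against its male label, since it held 4.61 TPM of *Xist* but 0.0278 TPM of *Ddx3y*, a gene of the Y chromosome, so each member's calls against D0 are given with and without it. Both W12 libraries held both transcripts, with *Xist* at 5.51 and 3.50 TPM and *Ddx3y* at 11.0 and 12.9 TPM, and the share of host cells was not tested. D0 also stood apart in stress genes: 13 immediate-early genes summed to 32776 and 54364 TPM at D0 against 5391 to 12647 TPM in the later libraries, and 12 of the 13 were called lower than D0 at W1, at W6 and again at W12, where the other, *Ier3*, was called higher. The 6 heat shock genes summed to 5769 and 12042 TPM at D0 against 2248 to 4637 TPM later, with 1 of 6 called lower at W1, 3 at W6, and 3 lower and 1 higher at W12. The part of these genes in the differences from D0 was not tested.

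*Gpx2* lies on the minus strand of chromosome 12 (chr12:76792333-76795554, GRCm38), inside the *Fntb* gene on the opposite strand. The 250 bases before its start (RefSeq, GRCm38.p6, chr12:76795555-76795804, minus strand) are shown because its difference from D0 was larger than that of any other member:
Gpx2: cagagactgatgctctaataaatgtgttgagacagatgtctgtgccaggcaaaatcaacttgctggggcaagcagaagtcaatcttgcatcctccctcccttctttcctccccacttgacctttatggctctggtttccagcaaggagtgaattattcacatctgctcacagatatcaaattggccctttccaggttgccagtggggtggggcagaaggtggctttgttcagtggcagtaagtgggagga
Windows from 250 bases before to 50 bases after a start were searched on both strands for an antioxidant response element core (TGACNNNGC, in 12.4% of 32851 windows of all genes), an AP-1 site (TGANTCA, 7.81%), a SOX core (AACAAT, 10.7%) and a TATA box (TATAAA, 13.6%). Of the 10 members, 8 had windows in the table used (13 windows in all), and the *Gpx2* window held none of these 4 sets of letters. The antioxidant core was found in the windows of *Gclm*, *Srxn1* and *Txnrd1*, the last in 1 of its windows, and a TATA box in that of *Nqo1*. The *Srxn1* window also held 2 AP-1 sites and the *Gpx1* window 1 SOX core. Of the 4 genes with an antioxidant core or a TATA box, 3 were called higher than D0 at W12, and *Txnrd1* was not. The same held for 6 of the 8 members tested and for 17.9% of all genes. The antioxidant cores and the TATA box are shown with the match in capitals:
Gclm (chr3:122245413-122245441): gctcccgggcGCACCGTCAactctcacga
Srxn1 (chr2:152105542-152105570): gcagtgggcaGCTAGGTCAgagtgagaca
Txnrd1 (chr10:82859104-82859132): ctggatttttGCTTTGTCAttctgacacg
Nqo1 (chr8:107403219-107403244): ataagcaggaTATAAAgccttcgctc
A match is a string of letters and was not tested as a binding site.

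*Gpx2* went from under 1 TPM at D0 to at least 231 TPM in each W6 and W12 library. Its level was 0.680 and 0.607 TPM at D0, 38.2 and 39.2 TPM at W1, 190 and 214 TPM at W2, 1349 and 231 TPM at W6, and 817 and 650 TPM at W12. Every library after D0 was above both D0 libraries, and the groups were apart from D0 through W1 and W2 to W12, whereas W12 and W6 overlapped. The ratio of mean TPM to D0 went from 60.2 at W1 to 314 at W2, 1228 at W6 and 1140 at W12. The W6 ratio rested on replicate 1, at 2097 for that library and 360 for replicate 2, and the W12 libraries lay between these at 1270 and 1011. By level, *Gpx2* ranked 13196 and 12977 in the D0 libraries and 103, 722, 201 and 256 in the W6 and W12 libraries. By its log2 difference from D0, it ranked 5 at W1, 1 both at W2 and at W6, and 6 at W12 among the genes tested. At W2 that difference was 6.95, and the next gene, *Rps24-ps3*, had 6.40.

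**Figure D1:**
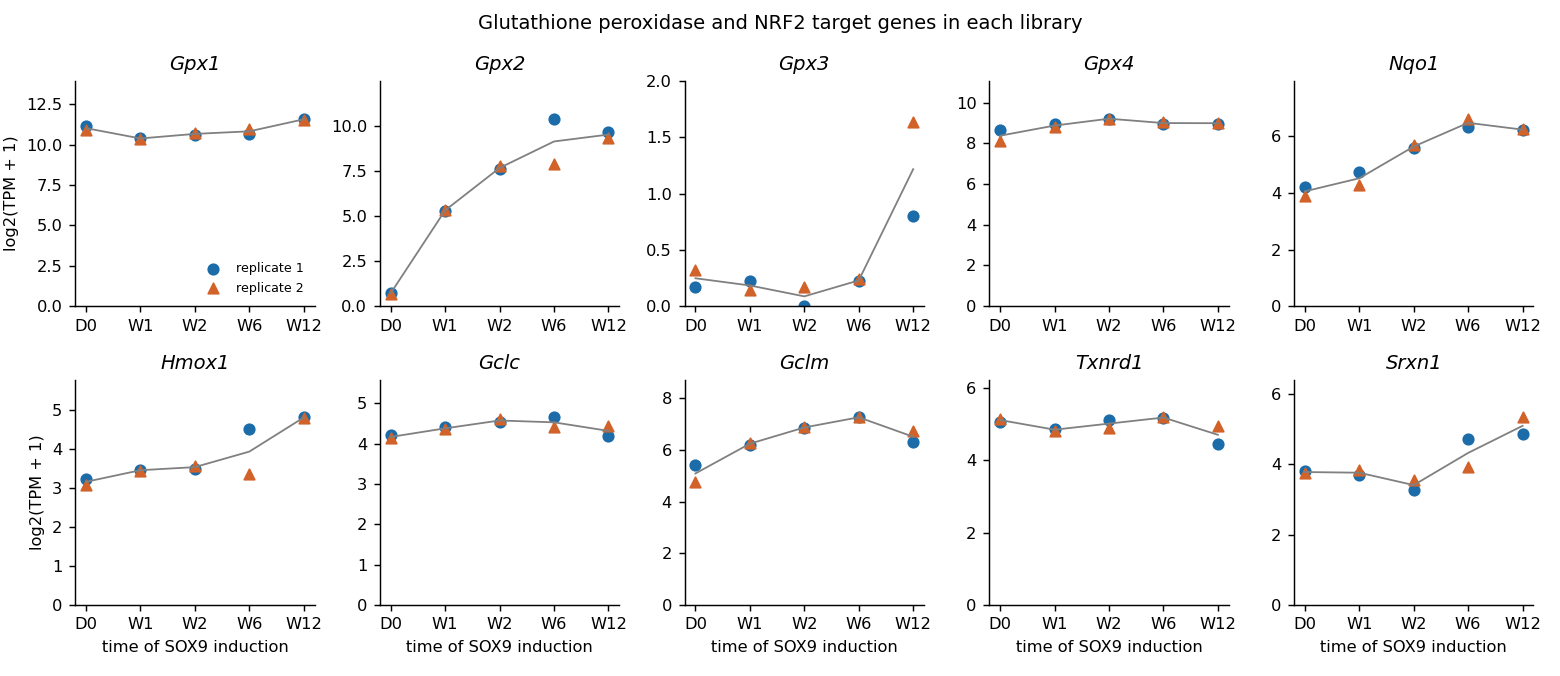
Level of each of the 10 genes in each library, as log2(TPM + 1) on the vertical axes (each panel has its own scale) against the 5 timepoints. Circles are replicate 1, triangles replicate 2 and the line joins the means. *Gpx2* climbed from 0.680 and 0.607 TPM at D0 to 817 and 650 TPM at W12, with its W6 replicates far apart.

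The choice of *Gpx2* did not use the W1, W6 and W12 libraries. Differences from W1 still span the rise up to W2, the timepoint of the choice. W6 replicate 2 was at 231 TPM, against 190 and 214 TPM at W2. Compared with W1, *Gpx2* was 20.4-fold higher at W6 by the ratio of means (log2 difference 3.82, SE 0.63, adjusted *P* = 0.0054) and 19.0-fold higher at W12 (4.20, SE 0.63, adjusted *P* = 0.00103). Over all genes, 10.6% were called higher at W6 than at W1 and 15.7% at W12. Both W6 and both W12 libraries were above both W1 libraries. The W6 value depended on which replicate was kept, at 2.55 without W6 replicate 1 and 5.09 without W6 replicate 2, and both remained past the threshold. Between W6 and W12 the difference was 0.38 (95% interval -1.04 to 1.81, adjusted *P* = 0.716). It was 1.65 without W6 replicate 1 (adjusted *P* = 0.00202) and -0.89 without W6 replicate 2 (adjusted *P* = 0.0136), so its direction rested on 1 library.

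The W6 replicates differed in only some members. *Gpx2* was 5.83-fold higher in replicate 1, a log2 gap larger than that of 99.3% of the genes tested, or tied with it. *Hmox1* was 2.36-fold higher there (21.8 against 9.26 TPM) and *Srxn1* 1.82-fold higher (25.7 against 14.1 TPM). *Gclm* (153 and 152 TPM) and *Txnrd1* (35.03 and 35.5 TPM) were at nearly the same level in both, and *Nqo1* (79.3 and 98.0 TPM) was lower in replicate 1. The same library held more of the upper follicle markers, with a summed level of 26030 TPM against 11321 TPM in replicate 2 and 5 of 5 markers above 0 in both, more MYC-SOX9 (1108 against 859 TPM), more of the heat shock genes (3721 against 2248 TPM) and more of the macrophage and Langerhans cell markers (22.9 against 7.12 TPM). Replicate 2 held more of the fibroblast markers (52.2 against 1.68 TPM) and melanocyte markers (12.2 against 5.10 TPM). Only 1 of the 6 fibroblast markers was at 1 TPM or more in each W6 library, and *Dcn* alone passed 1.08 TPM in any library. The part of all these genes and markers in the gap was not tested.

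Reads of *Gpx2* can be shared with a processed pseudogene, *Gpx2-ps1*, on chromosome 7. Of the 50-base runs in *Gpx2* transcripts, 5.97% also occur in *Gpx2-ps1*, and 36.8% of the runs of the pseudogene occur in *Gpx2*. *Gpx2-ps1* was listed at 0 in both D0 libraries and reached 24.6 and 9.42 TPM at W12, and how much of that was reassigned *Gpx2* signal is uncertain. *Fntb*, which overlaps *Gpx2* on the other strand, stayed between 4.14 and 17.3 TPM, and the strand setting of the counting is not given in the sources used here.

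*Gpx1* was the most abundant of the 4 peroxidases at every timepoint, and it fell before it rose. It was at 2254 and 1897 TPM at D0, 1363 and 1295 TPM at W1, 1526 and 1712 TPM at W2, 1624 and 2007 TPM at W6, and 3122 and 2929 TPM at W12. Both W1 libraries were the lowest and both W12 libraries the highest, apart from all others. The fall at W1 against D0 was called (log2 difference -0.64, SE 0.17, adjusted *P* = 0.0457), but it lost the call without either W1 library (adjusted *P* = 0.157 and 0.259), without D0 replicate 1 (0.0818), or without any 1 of the W2 and W12 libraries (0.0806 to 0.0864), which enter only the shared spread. It was also lost with all genes above 0 TPM (adjusted *P* = 0.141), quantile normalization (0.0560), no variance trend (0.0582), only the 4 libraries compared (0.189) or the replicate block (0.0793). Without D0 replicate 2 it was -0.76 (adjusted *P* = 0.0328). At W6 the difference from D0 was -0.20 (adjusted *P* = 0.390). The rise at W12 against D0 was called (0.55, SE 0.17, adjusted *P* = 0.0271) and was no longer called without D0 replicate 2 (0.42, adjusted *P* = 0.0914), without either W12 library (adjusted *P* = 0.126 and 0.0810), with all genes above 0 TPM (0.0704) or with only the 4 libraries compared (0.1497).

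*Gpx4* was at 401 and 273 TPM at D0 and between 446 and 594 TPM in the 8 later libraries, all above both D0 libraries. At W1 the difference from D0 was 0.50 (adjusted *P* = 0.122), and 0.77 without D0 replicate 1 (adjusted *P* = 0.00761). It was called higher than D0 at W6 (0.62, SE 0.18, adjusted *P* = 0.0291) and W12 (0.61, SE 0.18, adjusted *P* = 0.0232). D0 replicate 2 held the lower D0 value, and without it the differences were 0.34 at W6 (adjusted *P* = 0.0892) and 0.34 at W12 (adjusted *P* = 0.0725). The W6 call was also lost without either W6 or W2 library (adjusted *P* = 0.0533 to 0.0958), with all genes above 0 TPM (0.0858), quantile normalization (0.0537) or only the 4 libraries compared (0.184). The W12 call was lost without either W12 library (adjusted *P* = 0.0856 and 0.0980), with all genes (0.0688) or with only the 4 libraries (0.110). Of the 50-base runs of *Gpx4*, 34.7% also occur in the pseudogene *Gpx4-ps2*, which was at 1.53 to 5.42 TPM. *Gpx3* stayed at or under 0.253 TPM up to W6 and was at 0.742 and 2.10 TPM at W12, too low to be tested.

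Within the family, *Gpx1* held a smaller share after D0, and the shares of *Gpx2* and *Gpx4* are given beside it as a description. Of the summed TPM of the 4 peroxidases, *Gpx2* held 0.0256% and 0.0279% at D0, 2.02% and 2.20% at W1, 8.22% and 8.51% at W2, 38.9% and 8.39% at W6, and 18.4% and 15.9% at W12. *Gpx1* held 84.9% and 87.4% at D0, 72.1% and 72.7% at W1, 66.1% and 68.1% at W2, 46.8% and 72.8% at W6, and 70.3% and 71.5% at W12. *Gpx4* held 15.1% and 12.6% at D0, 25.9% and 25.04% at W1, 25.7% and 23.4% at W2, 14.4% and 18.8% at W6, and 11.2% and 12.5% at W12. At W1 the share that *Gpx1* no longer held was thus mostly that of *Gpx4*, whereas at W12 *Gpx4* was near its D0 share and *Gpx2* well above its own. Since TPM is scaled per length, these are shares of transcripts and not of protein.

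**Figure D2:**
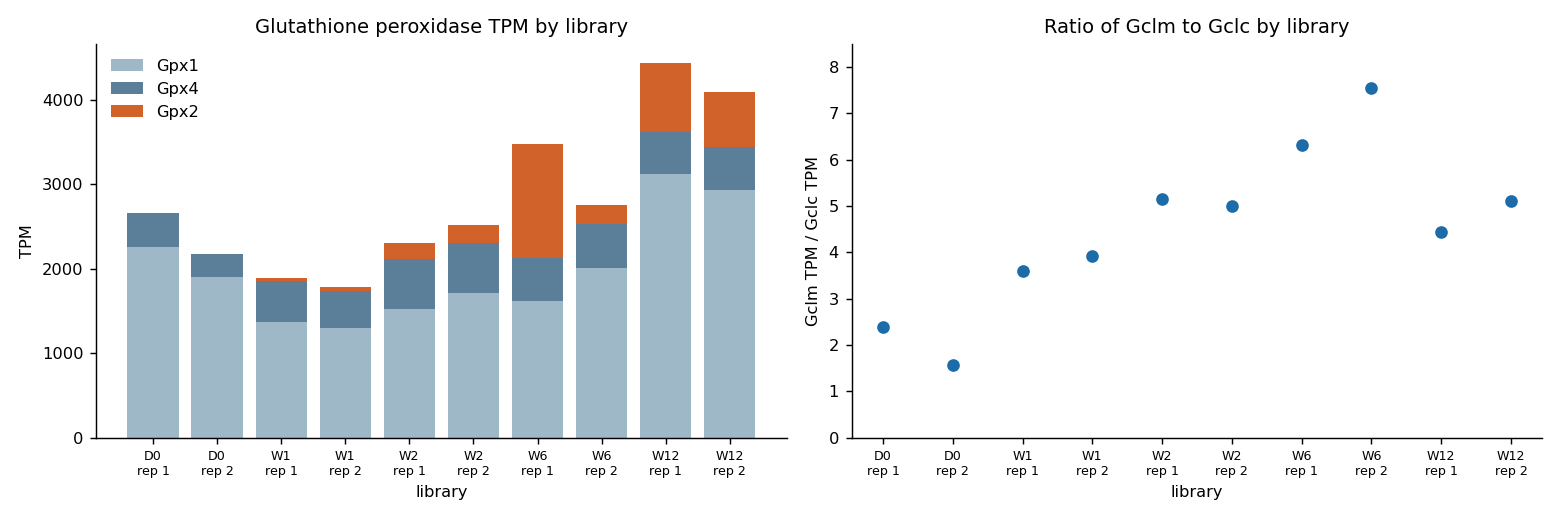
Left, TPM of *Gpx1*, *Gpx4* and *Gpx2* stacked for each of the 10 libraries (*Gpx3*, at most 2.10 TPM, is too low to be seen). Right, *Gclm* TPM divided by *Gclc* TPM in the same libraries. *Gpx2* is invisible at D0 and reaches 38.9% of the 4 peroxidases in W6 replicate 1, and the *Gclm* to *Gclc* ratio is lowest in the D0 libraries and highest in the W6 libraries.

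*Gclm* and *Gclc* encode the modifier and the catalytic subunit of glutamate-cysteine ligase, the rate-limiting enzyme of glutathione synthesis, and the modifier was called against D0 at W1, W6 and W12 while the catalytic subunit was called at none of them, nor under any alternative run. *Gclm* was at 41.8 and 26.0 TPM at D0, 72.8 and 76.3 TPM at W1, 114 and 117 TPM at W2, 153 and 152 TPM at W6, and 77.0 and 105 TPM at W12. All later libraries were above both D0 libraries, and no 2 neighbouring groups overlapped. *Gclm* was higher than D0 at W1 (1.15, SE 0.22, adjusted *P* = 0.0140), at W6 (2.18, SE 0.22, adjusted *P* = 0.000345) and at W12 (1.42, SE 0.22, adjusted *P* = 0.0015). Without D0 replicate 2 these were 0.82 (adjusted *P* = 0.0396), 1.84 (0.00118) and 1.09 (0.00559). The W1 call was lost without either W1 library (adjusted *P* = 0.0719 and 0.110), with all genes above 0 TPM (0.0756) or with only the 4 libraries compared (0.107), and those at W6 and W12 held under every alternative run. A small part of its sequence (3.92% of 50-base runs) also occurs in other genes, most in *Ppia*.

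*Gclc* stayed between 16.5 and 24.2 TPM in all 10 libraries. The W1, W2 and W6 libraries were all above both D0 libraries, and W12 overlapped D0. Its differences from D0 were 0.21 at W1, 0.36 at W6 and 0.15 at W12 (95% intervals -0.15 to 0.58, -0.00077 to 0.73 and -0.21 to 0.51), and none was called (adjusted *P* = 0.446, 0.113 and 0.474). *Gclm* TPM per *Gclc* TPM was 2.40 and 1.57 at D0, 3.61 and 3.92 at W1, 5.14 and 4.99 at W2, 6.31 and 7.55 at W6, and 4.44 and 5.10 at W12. The ratio was thus higher in each later library than in both D0 libraries.

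*Nqo1*, a quinone reductase that is a standard readout of NRF2 activity, rose with time up to W6. It was at 17.5 and 13.9 TPM at D0, 26.0 and 18.5 TPM at W1, 46.7 and 51.1 TPM at W2, 79.3 and 98.0 TPM at W6, and 73.9 and 74.9 TPM at W12. No 2 neighbouring groups overlapped. At W1 the difference from D0 was 0.46 (adjusted *P* = 0.186). At W6 it was 2.42 (SE 0.20, adjusted *P* = 0.000112), and at W12 it was 2.18 (SE 0.20, adjusted *P* = 9.44e-05). Both calls held under every alternative, and without D0 replicate 2 the differences were 2.26 and 2.02. *Nqo1* was also the only member called between W2 and W6 (0.84, SE 0.20, adjusted *P* = 0.0277), and this call was lost without either W2 library (adjusted *P* = 0.168 and 0.114), without W6 replicate 2 (0.110) or with all genes above 0 TPM (0.0826), and fell just short without either W12 library (0.0522 and 0.0521).

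*Hmox1* encodes the inducible haem oxygenase, which breaks down haem. It was at 8.45 and 7.44 TPM at D0, 10.04 and 9.92 TPM at W1, 10.3 and 10.9 TPM at W2, 21.8 and 9.26 TPM at W6, and 27.2 and 26.9 TPM at W12. The W12 libraries were above all others. The W12 difference from D0 was called (1.65, SE 0.31, adjusted *P* = 0.00369) and held under every alternative, at 1.57 without D0 replicate 2 (adjusted *P* = 0.0253). At W6 it was 0.78 (adjusted *P* = 0.0900). Without W6 replicate 2 it was 1.35 (adjusted *P* = 0.00167), and without W6 replicate 1 it was 0.20 (adjusted *P* = 0.393).

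*Srxn1*, which encodes sulfiredoxin, the enzyme that restores over-oxidized peroxiredoxins, was at 13.0 and 12.6 TPM at D0, 11.9 and 13.3 TPM at W1, 8.67 and 10.7 TPM at W2, 25.7 and 14.1 TPM at W6, and 27.95 and 39.7 TPM at W12. The W2 libraries were the lowest and the W12 libraries the highest. It was called at W12 against D0 (1.32, SE 0.28, adjusted *P* = 0.00596). The call held without D0 replicate 2 (1.30) and was lost without W12 replicate 2 (1.07). At W6 it was 0.55 (adjusted *P* = 0.163). Without W6 replicate 2 it was 0.96 (adjusted *P* = 0.0273), and without W6 replicate 1 it was 0.13 (adjusted *P* = 0.696).

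*Txnrd1*, the cytosolic thioredoxin reductase, was at 32.6 and 34.6 TPM at D0, 28.4 and 27.1 TPM at W1, 33.9 and 28.9 TPM at W2, 35.03 and 35.5 TPM at W6, and 20.9 and 30.0 TPM at W12. No difference from D0 was called (-0.27, 0.07 and -0.41 at W1, W6 and W12, adjusted *P* = 0.402, 0.797 and 0.102). The lowest value was that of W12 replicate 1, and without W12 replicate 2 the W12 difference was -0.66 (adjusted *P* = 0.0331).

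Erythroid, endothelial, and macrophage and Langerhans cell markers were higher at W12 than at any earlier timepoint, and these values stand beside the W12 results of *Hmox1*, *Srxn1*, *Gpx1* and *Gpx3*. Erythroid markers (6 genes) summed to 432 and 463 TPM at W12 and to 4.15 to 30.6 TPM before. Endothelial markers (4 genes, *Pecam1* the highest) summed to 51.8 and 112 TPM at W12 and to at most 1.42 TPM before. Macrophage and Langerhans cell markers (12 genes) summed to 189 and 219 TPM at W12 and to at most 42.5 TPM before. In that last list *Cd74* and *H2-Ab1* reached 124 and 90.2 TPM, while *Ptprc*, *Adgre1*, *Csf1r*, *Lyz2*, *C1qa*, *Mrc1* and *Cd163* were under 1 TPM in all libraries. Fibroblast markers summed to 13.7 and 28.1 TPM at W12, below the 52.2 TPM of W6 replicate 2 and above the other earlier libraries (at most 4.06 TPM). Only 1 of the 6 was at 1 TPM or more in each W12 library and in W6 replicate 2, and *Dcn* alone passed 1.08 TPM in any library. Melanocyte markers summed to 12.2 and 10.8 TPM at W12, as in W6 replicate 2, and T cell markers were lowest at W12 (0.336 and 0.286 TPM). The part of these cells in the W12 results was not tested.

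Counted over the 8 members tested against D0, 1 rose and 1 fell at W1, 3 rose at W6 and 6 rose at W12. Over all genes, 5.79% were called higher and 4.10% lower at W1, 18.3% higher at W6 and 17.9% higher at W12. At W1 the split over all genes was 759 higher and 537 lower, and 603 higher and 669 lower after median-ratio scaling. No member was called lower at W6 or at W12 by limma, nor had any an unadjusted *P* under 0.05 in that direction (0 at either). Without D0 replicate 2 the counts were 2 at W1, 2 at W6 and 4 at W12, with *Gpx4* lost at W6 and *Gpx1* and *Gpx4* at W12. The calls over all genes also fell there, to 4.45% higher and 3.41% lower at W1, 10.01% higher at W6 and 11.6% higher at W12. Without W12 replicate 2, 3 rose and 1 fell at W12, since *Gpx1*, *Gpx4* and *Srxn1* were lost and *Txnrd1* was called lower, with 9.99% of all genes higher and 18.0% lower in that fit. The median difference of the 8 members was 0.26 at W1, 0.58 at W6 and 0.97 at W12, against 0.09, 0.08 and -0.08 over all genes tested. These comparisons share the D0 libraries.

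Markers of keratinocyte states moved at the same timepoints. Suprabasal markers summed to 5784 and 1909 TPM at D0 and to 11899 to 13555 TPM at W6 and W12. The highest of them, *Krtdap*, reached 11060 TPM, and none of the others passed 1350 TPM in any library. Of the 6, 2 were called higher than D0 at W1, 3 at W6 and 3 at W12, where 1 was lower. Of the 7 basal markers, 6 were called lower at W6 (median difference -1.07), and 4 were lower and 1 higher at W12 (-0.95). Of the 5 upper follicle markers, 3 were called higher at W1, 4 at W6 and 1 at W12, where 1 was lower. Over all genes, 14.1% were called lower at W6 and 25.1% at W12. The part of these states in the members' differences was not tested.

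**Figure D3:**
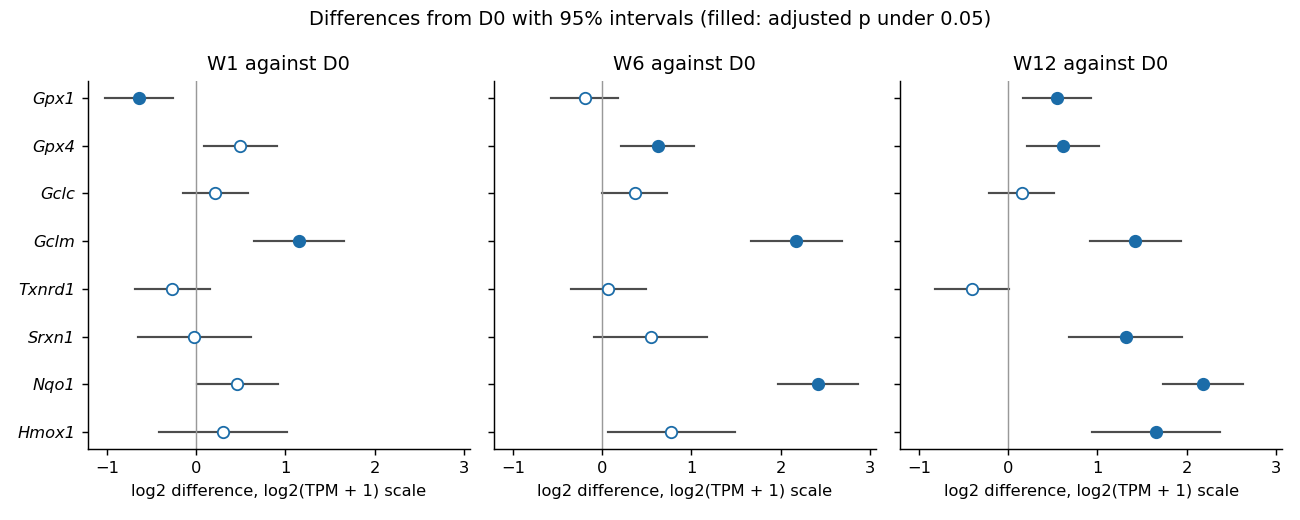
Log2 difference from D0 at W1, W6 and W12 for the 8 members tested (horizontal axis, log2(TPM + 1) scale), with 95% intervals from limma. Filled points were called at an adjusted *P* under 0.05: *Gpx1* and *Gclm* at W1, 3 genes at W6 and 6 genes at W12, all of the latter 9 to the right of 0.

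Neighbouring timepoints were compared in the same fit. From W1 to W2, limma called 0 of 8 members and 0.114% of all genes. At an unadjusted *P* under 0.05, 2 members, *Gclm* (0.63, adjusted *P* = 0.264) and *Nqo1* (1.12, adjusted *P* = 0.0825), were higher at W2, against 14.5% of all genes in either direction. From W2 to W6, 1 of 8 was called higher (*Nqo1*), against 7.99% of all genes. From W6 to W12, 1 of 9 rose and 1 fell, against 6.66% of all genes higher and 13.5% lower. The median of all genes moved by -0.16 in that step, and by -0.01 after median-ratio scaling, which turned the split of calls from 873 higher and 1769 lower to 1171 higher and 957 lower. The member that rose was *Gpx1* (0.74, SE 0.17, adjusted *P* = 0.0171, and 0.92 after that scaling), and its call was lost without W6 replicate 1 or either W12 library (adjusted *P* = 0.0850, 0.112 and 0.0643) and with only the 4 libraries compared (0.0630). The member that fell was *Gclm* (-0.75, SE 0.22, adjusted *P* = 0.0459), which lost its call under most alternatives, the same scaling included (-0.58, adjusted *P* = 0.0934).

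The regulators upstream of these members were tested from a list of 12. *Nfe2l2* itself measured 62.5 and 75.2 TPM at D0, compared with 69.3 and 78.5 TPM at W12, with differences from D0 of -0.11 at W1, -0.07 at W6 and 0.10 at W12, none called (adjusted *P* = 0.724, 0.777 and 0.630). *Keap1* was at 57.4 and 61.0 TPM at D0, 90.1 and 89.2 TPM at W1, and 36.9 and 38.8 TPM at W12. It was called lower at W12 (-0.63, SE 0.17, adjusted *P* = 0.0169), while its W1 difference of 0.59 was not called (adjusted *P* = 0.0652). *Bach1* stayed between 9.23 and 14.9 TPM and was not called at W1, W6 or W12 (adjusted *P* = 0.132, 0.259 and 0.615).

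Other regulators included the NRF2 relative *Nfe2l3*, which rose from a mean of 1.95 TPM at D0 to 28.9 TPM at W12 (3.34, SE 0.23, adjusted *P* = 2.84e-05). The small MAF partners *Maff* (37.3 to 8.83 TPM, -1.94) and *Mafk* (176 to 44.6 TPM, -1.88) fell. Of the 12 regulators listed, 1 was higher and 7 lower at W12, with a median difference of -0.66, against 17.9% higher, 25.1% lower and a median of -0.08 over all genes.

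The 10 lists of related antioxidant genes, 101 genes tested in all, gave 12 higher and 7 lower at W1, 35 higher and 14 lower at W6, and 27 higher and 26 lower at W12. Without D0 replicate 2 these counts were 8 and 6, 26 and 13, and 23 and 19. After median-ratio scaling they were 10 and 7, 34 and 15, and 31 and 22, and the split over all genes at W12 went from 2352 higher and 3290 lower to 2947 higher and 2916 lower. The median difference over the 101 genes was 0.09, 0.14 and 0.11 at the 3 timepoints. As shares of the list, the counts are to be read against the percentages of all genes called in the same fit. Those of the fit over all libraries are given above. Without D0 replicate 2 they were 4.45% higher and 3.41% lower at W1, 10.01% and 7.96% at W6, and 11.6% and 16.9% at W12, and after median-ratio scaling 4.60% and 5.10%, 16.8% and 16.0%, and 22.5% and 22.2%. Of the 28 list genes named here as called at W12, all kept their direction without D0 replicate 2 and 22 kept the call. Those that lost it were *Keap1*, *Sepsecs*, *Eefsec*, *Me1*, *Osgin1* and *Pon2* (adjusted *P* = 0.0521 to 0.132).

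**Figure D4:**
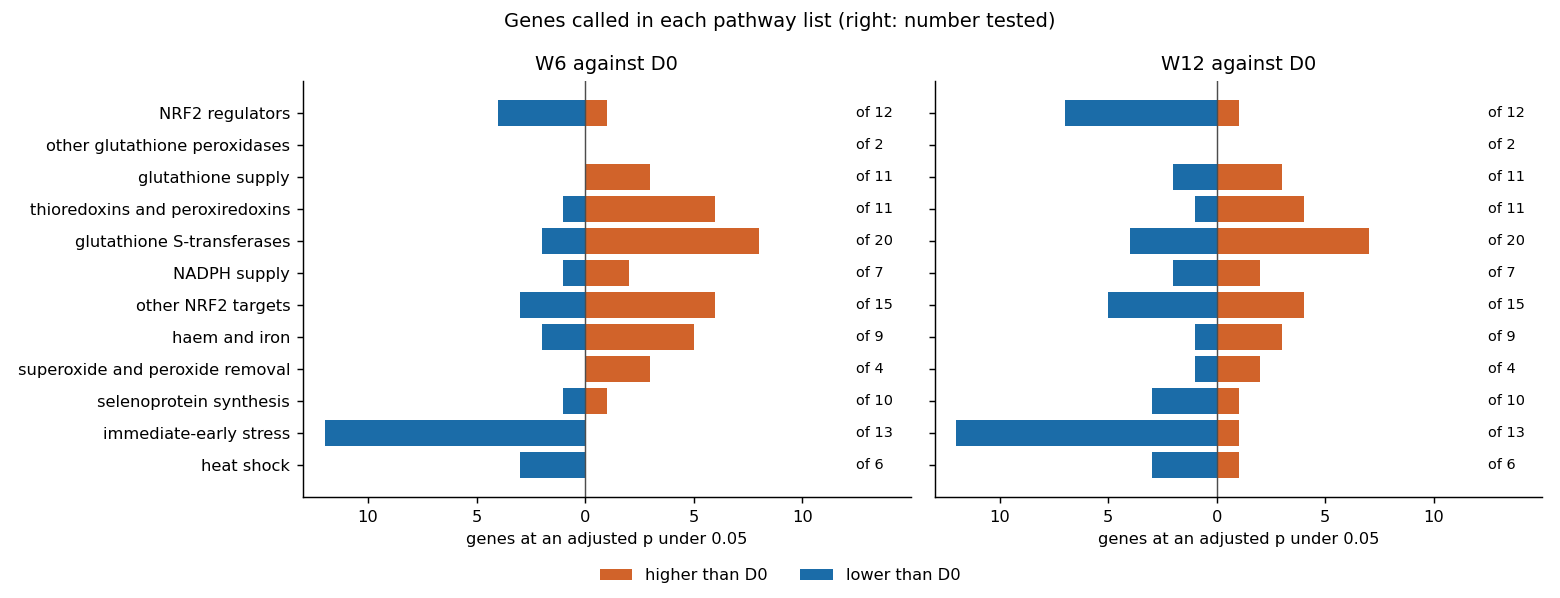
Number of genes called higher than D0 (to the right of 0) and lower than D0 (to the left) in each list at W6 and W12, with the number tested at the right of each bar. The 10 antioxidant lists total 35 higher and 14 lower at W6 and 27 higher and 26 lower at W12, and the last 2 lists are the stress genes that were high at D0.

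Several enzymes that use glutathione rose. Of 20 glutathione S-transferases, which join glutathione to electrophiles, 7 were higher and 4 lower at W12. *Gsta4*, which clears products of lipid peroxidation, had the largest W12 rise of the listed genes, from a mean of 1.41 TPM at D0 to 205 TPM at W12 (6.45, SE 0.38, adjusted *P* = 1.25e-05). The microsomal enzymes *Mgst2* (21.9 to 162 TPM, 3.23) and *Mgst1* (36.3 to 192 TPM, 2.38) rose as well. Of 11 genes of glutathione supply and use, 3 were higher and 2 lower at W12, with *Glrx* (glutaredoxin, 3.27) and *Ggct* (2.41) higher and *Slc3a2*, a subunit of the cystine transporter, lower (-1.01).

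Among 11 thioredoxins and peroxiredoxins, 4 were higher and 1 lower at W12. *Txn1*, the cytosolic thioredoxin, rose from a mean of 201 TPM at D0 to 1175 TPM at W12 (2.58, SE 0.22, adjusted *P* = 7.73e-05), and the mitochondrial peroxiredoxin *Prdx3* rose from 12.8 to 51.8 TPM (1.94). *Txnip*, which binds and inhibits thioredoxin, fell from 640 to 66.0 TPM (-3.20, SE 0.42, adjusted *P* = 0.000625).

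The remaining lists held calls in both directions. Of 15 other NRF2 targets 4 were higher and 5 lower at W12, with the aldo-keto reductases *Akr1b8* (11.4 to 177 TPM, 3.85) and *Akr1c13* (0.258 to 3.42 TPM, 1.81) higher and *Osgin1* lower (-1.41). *Akr1c13* averaged at most 0.388 TPM up to W2 and 1.14 TPM at W6, so it passed the filter of 1 TPM only through W12. Its W12 call is therefore not independent of that filter. Of 7 genes of NADPH supply 2 were higher and 2 lower, *G6pdx*, the entry enzyme of the pentose phosphate pathway, being higher (1.39) and *Me1* (-1.37) and *Idh2* (-0.92) lower. Of 9 haem and iron genes 3 were higher and 1 lower, with the iron exporter *Slc40a1* (1.58) and biliverdin reductase *Blvra* (0.87) higher and the ferritin heavy chain *Fth1* lower (4183 to 1521 TPM, -1.45). Of 4 genes that remove superoxide or peroxide, *Sod2* (0.99) and *Pon2* (0.38) were higher and catalase, *Cat*, lower (-0.76). Of 10 selenoprotein genes, which bear on the selenium-containing GPX1 to GPX4 and TXNRD1, 1 was higher and 3 lower, namely *Sepsecs* (-1.08), *Eefsec* (-0.57) and *Selenow* (-0.51). The 2 further peroxidases tested, *Gpx7* and *Gpx8*, were called at none of the 3 timepoints (0 of 2, and 0 at an unadjusted *P* under 0.05).

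The genes whose course over the 10 libraries was most like that of *Gpx2*, by Pearson's r of log2(TPM + 1) and as a description only, were *Dkkl1* (r = 0.983), *Prss12* (0.975), *Snx4* (0.970) and *Gm47316* (0.968). The points share libraries and the same rise after D0, so r says little beyond that course. *Prss12*, a secreted serine protease, went from 0.563 and 0.532 TPM at D0 to 55.2 and 65.7 TPM at W12, and *Snx4* only from 25.1 and 24.2 TPM to 36.7 and 37.8 TPM. Of the other members, *Nqo1* (r = 0.905, rank 126 among all genes tested) and *Gclm* (0.875, rank 237) were the most like *Gpx2*, followed by *Gpx4* (0.776), *Hmox1* (0.770), *Gclc* (0.653) and *Srxn1* (0.534). *Gpx1* (0.191) and *Txnrd1* (-0.26) were the least like it.

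**Figure D5:**
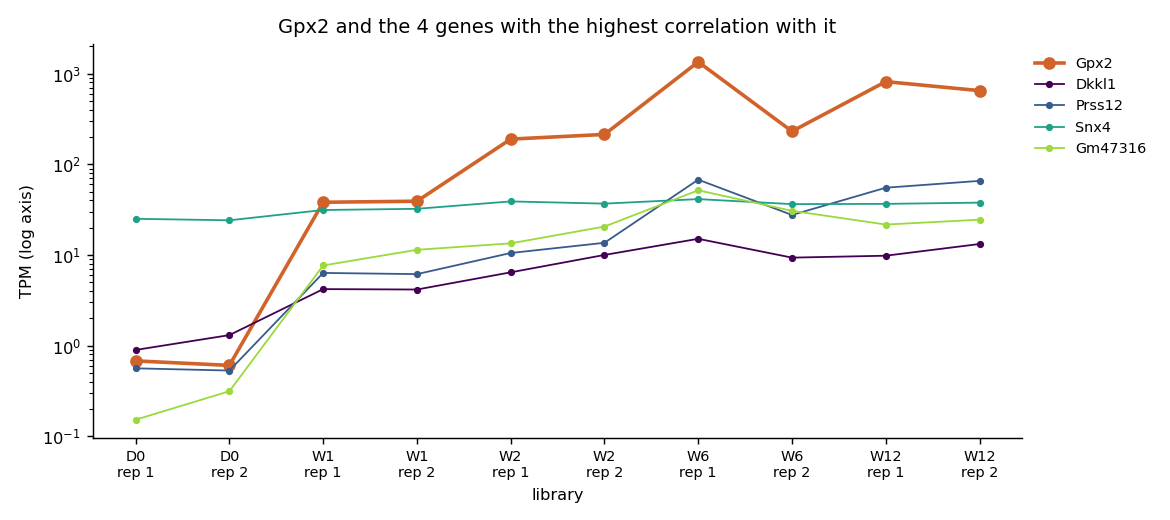
TPM on a log axis in each of the 10 libraries for *Gpx2* (thick line) and the 4 genes with the highest r with it (0.968 to 0.983). *Gpx2* starts at 0.680 and 0.607 TPM and is above all 4 from W1 on.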

How the data were processed

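RNA of sorted EpdSCs was sequenced in 10 libraries, 2 at each of 5 timepoints, from low-input SMARTer libraries. Per the labels, the authors quantified transcripts with Salmon (1.4.0) against a GENCODE GRCm38 index with the transgene added and summarised them with Tximport (1.12.3), and the TPM values were used as deposited. TPM keeps no read depth, so no counting error can be given. A further table, on 4 placode libraries, holds only the comparison the authors made and was not used.

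TPM + 1 (pseudocount 1) was log2-transformed, genes averaging 1 TPM or more were kept, and limma (3.58.1, R 4.3.3, eBayes with trend) was fitted over all 10 libraries, so that timepoints share 1 spread. The fit was tested on simulated data. The members and lists were chosen with earlier results of these data known. Genes named were all members, *Nfe2l2*, *Keap1* and *Bach1*, up to 3 genes per list with the largest called W12 difference, and the 5 genes most like *Gpx2*, of which 1 is not reported here. *Gpx7*, *Gpx8* and marker genes were named besides. Replicates are biological per the labels, but *P* values measure only the spread between these libraries. Replicate numbers did not pair libraries (correlations of -0.13 to 0.18). Alternatives were other pseudocounts, filters, scalings, variance priors, a replicate block and leaving out libraries.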

Additional observations from a re-analysis of the deposited data

Results flagged for a closer look

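For 6 members, the difference from D0 was not the same at every timepoint by a test of the difference itself. Since the D0 libraries are shared, each value is also the difference between the 2 later timepoints, and at W12 the time on DOX and the graft cannot be told apart. For *Gpx1*, the difference from D0 at W12 was 0.74 above that at W6 (limma, SE 0.17, adjusted *P* = 0.0171) and 1.19 above that at W1 (SE 0.17, adjusted *P* = 0.000784), with both W12 libraries above all others. The call against W6 was lost without W6 replicate 1 or either W12 library (adjusted *P* = 0.0850, 0.112 and 0.0643) and with only the 4 libraries compared (0.0630). For *Gclm*, the difference from D0 at W12 minus that at W6 was -0.75 (SE 0.22, adjusted *P* = 0.0459), with both W12 libraries below both W6 libraries. This call was lost under most alternatives, median-ratio scaling (-0.58, adjusted *P* = 0.0934), quantile normalization (0.0632) and the replicate block (0.0697) included. The difference from D0 of *Gclm* at W6 was 1.02 above that at W1 (SE 0.22, adjusted *P* = 0.0143), with both W6 libraries above both W1 libraries, and this call was lost without either W1 library (adjusted *P* = 0.0840 and 0.0753), without W6 replicate 2 (0.0519) or with all genes above 0 TPM (0.0580).

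Compared with that at W1, the difference from D0 at W12 was higher by 4.20 for *Gpx2* (adjusted *P* = 0.00103), by 1.72 for *Nqo1* (SE 0.20, adjusted *P* = 0.000324), by 1.35 for *Hmox1* (SE 0.31, adjusted *P* = 0.00842) and by 1.34 for *Srxn1* (SE 0.28, adjusted *P* = 0.00507), with both W12 libraries above both W1 libraries for each. At W6 it was higher than at W1 by 3.82 for *Gpx2* (adjusted *P* = 0.0054) and by 1.96 for *Nqo1* (SE 0.20, adjusted *P* = 0.000751), and higher than at W2 by 0.84 for *Nqo1* (SE 0.20, adjusted *P* = 0.0277). *Hmox1* lost its call without W12 replicate 1 (1.35, adjusted *P* = 0.0521), and *Nqo1* at W6 against W2 lost its call under 6 alternatives (adjusted *P* = 0.0521 to 0.168). The other calls of this paragraph held under every alternative run.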

How the results depend on the processing

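There were 19 alternatives, of which 10 left out 1 library each, all run with limma. Results of single members that were called kept their call and direction in 234 cases and lost the call in 61. Results not called stayed so in 623, became called in the same direction in 14 and turned direction in 11. Among those 11, *Gpx2* at W12 against W6 without W6 replicate 2 (-0.89) also became called. The number of members called in either direction at W6 and at W12 against D0 stayed within 1.5 times, although of the 6 that rose at W12 3 did without W12 replicate 2, where 1 fell, and that at W2 against W1 was 0 throughout. At W1 against D0, where 2 were called, the count was 0 with all genes above 0 TPM or with only the 4 libraries compared, 1 with quantile normalization, without the variance trend or with the replicate block, and 0 to 2 when 1 library was left out. At W6 against W2, where 1 was called, it was 0 with all genes, 2 with a minimum mean of 5 TPM or quantile normalization, and 0 to 2 when 1 library was left out. At W12 against W6, where 2 were called, it was 1 with all genes, median-ratio scaling, no variance trend or the replicate block, 0 with only the 4 libraries, and 0 to 3 when 1 library was left out. *Gpx2* at W12 against W6 ran from -0.89 to 1.65 when 1 library was left out. The causes were not tested. With the replicate block, the numbers of which do not pair the libraries, all-gene calls were 1057 at W1 and 3761 at W6 against D0 and 2163 at W12 against W6. With the pairing crossed, which was chosen after seeing the data because the correlations there were -0.11, -0.13 and -0.11, they were 1225, 4291 and 2666, with 1 member called at W1. Besides *Gpx2*, results not called that turned direction were *Gpx1* at W6 against D0 (0.0058 with quantile normalization) and *Txnrd1* there (-0.0027 with median-ratio scaling). When 1 library was left out, *Srxn1* at W1 against D0 (-0.096 to 0.058) also turned, as did *Hmox1* (-0.18 to 0.97) and *Gclc* (-0.17 to 0.082) at W6 against W2. The last was *Gpx4* at W12 against W6 (0.17 with median-ratio scaling, 0.014 with quantile normalization, and -0.037 to 0.023 when 1 library was left out). With 2 libraries a timepoint and no read depth, small differences could not be resolved.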
